A study of Arabidopsis thaliana with 18 samples.

Results

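In shoots of Arabidopsis thaliana, 96 of 22746 probe sets had lower signals both under potassium starvation and under caesium treatment than in control plants. A probe set is a group of short probes on the array that usually reads 1 transcript. The 96 were chosen by 3 conditions on shoot values. The mean of log2(signal + 16) was at least 0.8 lower in potassium-starved than in control shoots, it was at least 0.8 lower in caesium-treated than in control shoots, and the mean signal in control shoots was at least 60. They make up 1.02% of the 9396 probe sets that met the condition on control signal. As the shoot values selected the set, they are described here with no test, and only roots, which the choice did not use, were tested. A gene name was given for 49 of the 96 (49 different genes), and 47 are not listed in the probe table used here and go by their probe set number.

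The study held 6 groups of 3 arrays each, potassium-starved, caesium-treated and control plants with shoots and roots apart, all of the Wassilewskija ecotype ws-2 at growth stage 3.90. Potassium-starved plants had a dilute Murashige and Skoog solution lacking potassium. Caesium-treated plants, a separate treatment, had a dilute Murashige and Skoog solution with 2 mM caesium. The labels state no treatment for controls, nor how long a treatment lasted. Every sample pooled 40 to 50 plants, but the labels do not say whether samples 1 to 3 of a group were separate sowings, so p-values measure only the spread between these samples.

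Potassium is the main inorganic cation of plant cells. It activates many enzymes, balances charge in photosynthesis and protein synthesis, and as a solute in the vacuole it drives the turgor on which cell expansion depends. Caesium is an alkali metal with no known role in plants that enters through potassium uptake systems and interferes with them, and both low potassium and excess caesium are known to slow the growth of leaves and roots. Shoot growth rests on wall-loosening proteins, on auxin-responsive transcription and on the supply of carbon from chloroplasts. Named members include an expansin, auxin response genes and genes for chloroplast proteins. Most listed genes of these kinds were not members, and a link between the set and growth was not tested.

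The 18 arrays had median signals between 33.0 and 45.4 and highest signals between 3722 and 6513. Of the root arrays, 2 are titled as repeats, potassium-starved root 1 and caesium-treated root 2. The summed signal of 4 markers of photosynthetic tissue, PRK, SBPASE, RCA and LHCB4.2, lay between 4424 and 6730 in potassium-starved shoots, between 6892 and 8582 in caesium-treated shoots and between 8823 and 9625 in control shoots. In roots it was 90.8 to 171.8 under potassium starvation, 202.7 to 283.4 under caesium and 63.9 to 163.6 in controls. Summed over 5 root markers led by PYK10, signals were 2142 to 3667 in roots against 80.7 to 1255 in shoots, so the organ labels matched these markers. The shoot sums were mostly PYK10, which varied with replicate number. In potassium-starved, caesium-treated and control shoots it had 46.9, 129.4 and 172.5 in replicate 1. It had 902.7, 948.5 and 1199.7 in replicate 2 and 521, 420 and 278.9 in replicate 3. Of the 3 markers listed for senescing leaves 1 had a named probe set, SAG29, with 252.7 to 449.3 in potassium-starved shoots, 20 to 159.3 in caesium-treated shoots and 5.6 to 9.9 in control shoots. The photosynthetic markers and SAG29 moved in shoots with the treatments, and their part in the lower signals of the set was not tested. In pooled organs fewer cells of a type and less RNA per cell cannot be told apart.

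In potassium-starved shoots 1231 of the 9396 probe sets (13.1%) were lower than control by 0.8 or more on the log2 scale, and in caesium-treated shoots 140 of them (1.49%). The 96 members are therefore 7.80% of the potassium list and 68.6% of the caesium list, and both comparisons share the same 3 control arrays. Over the members the median difference from control was -1.39 under potassium starvation (range -3.33 to -0.82) and -0.99 under caesium (range -1.88 to -0.80). The same medians over all 9396 probe sets were -0.17 and -0.01. Potassium-starved shoots were the lower of the treated shoots for 82 members, and caesium-treated shoots were the lower for 14. A log2 difference of -1 or lower was reached by 73 members under potassium starvation and by 45 under caesium.

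**Figure D1:**
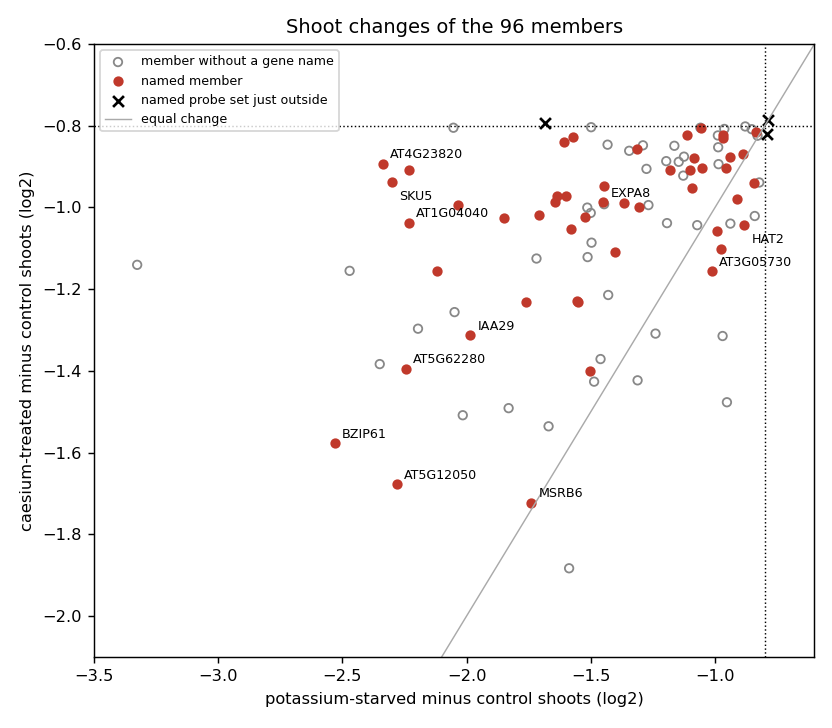
Differences in mean log2(signal + 16) between potassium-starved and control shoots (horizontal axis) and between caesium-treated and control shoots (vertical axis) for the 96 members. Filled red points are named members, open circles members without a gene name, crosses named probe sets just outside the choice, dotted lines mark -0.8 and the grey line marks equal change; 82 members lie to the left of the grey line.

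The array values behind these means were mostly separate. All 3 potassium-starved shoots were below all 3 control shoots for 89 members, where 30.4% of the 9396 probe sets met this, and all 3 caesium-treated shoots for 85 members, where 13.8% met it. Both held for 82 members. The choice used these same contrasts and so favours such separation, and the shares are no separate evidence for the set. Taken array by array, the median member stood at -1.69, -1.27 and -1.15 from the control mean in potassium-starved shoots 1 to 3. It stood at -0.88, -1.14 and -1.02 in caesium-treated shoots and at 0.13, -0.12 and 0.03 in the control shoots themselves. Potassium-starved shoot 1 was thus the lowest array. When each of the 9 shoot arrays was left out in turn and the choice repeated, 37 of the 96 were chosen all 9 times. BZIP61, AT5G12050, IAA29, MSRB6, AT1G04040, COR15B and AT5G02160 were among these, whereas NdhN, NdhL, AT5G66590 and AT3G05730 were chosen 6 times. The number chosen moved most without control shoot 2, to 154.

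The edge of the set is a matter of small differences. Just inside it were AT5G48490, a lipid transfer protein family member, at -1.06 under potassium starvation and -0.81 under caesium, the rubredoxin-like AT1G54500 at -0.83 and -0.82, and SETH3 at -1.11 and -0.82. Just outside were AT3G16850 at -1.69 and -0.79, AT1G23390 at -0.79 and -0.82, and AT5G53490 at -0.79 and -0.79. Values just inside and just outside were thus nearly the same.

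**Figure D2:**
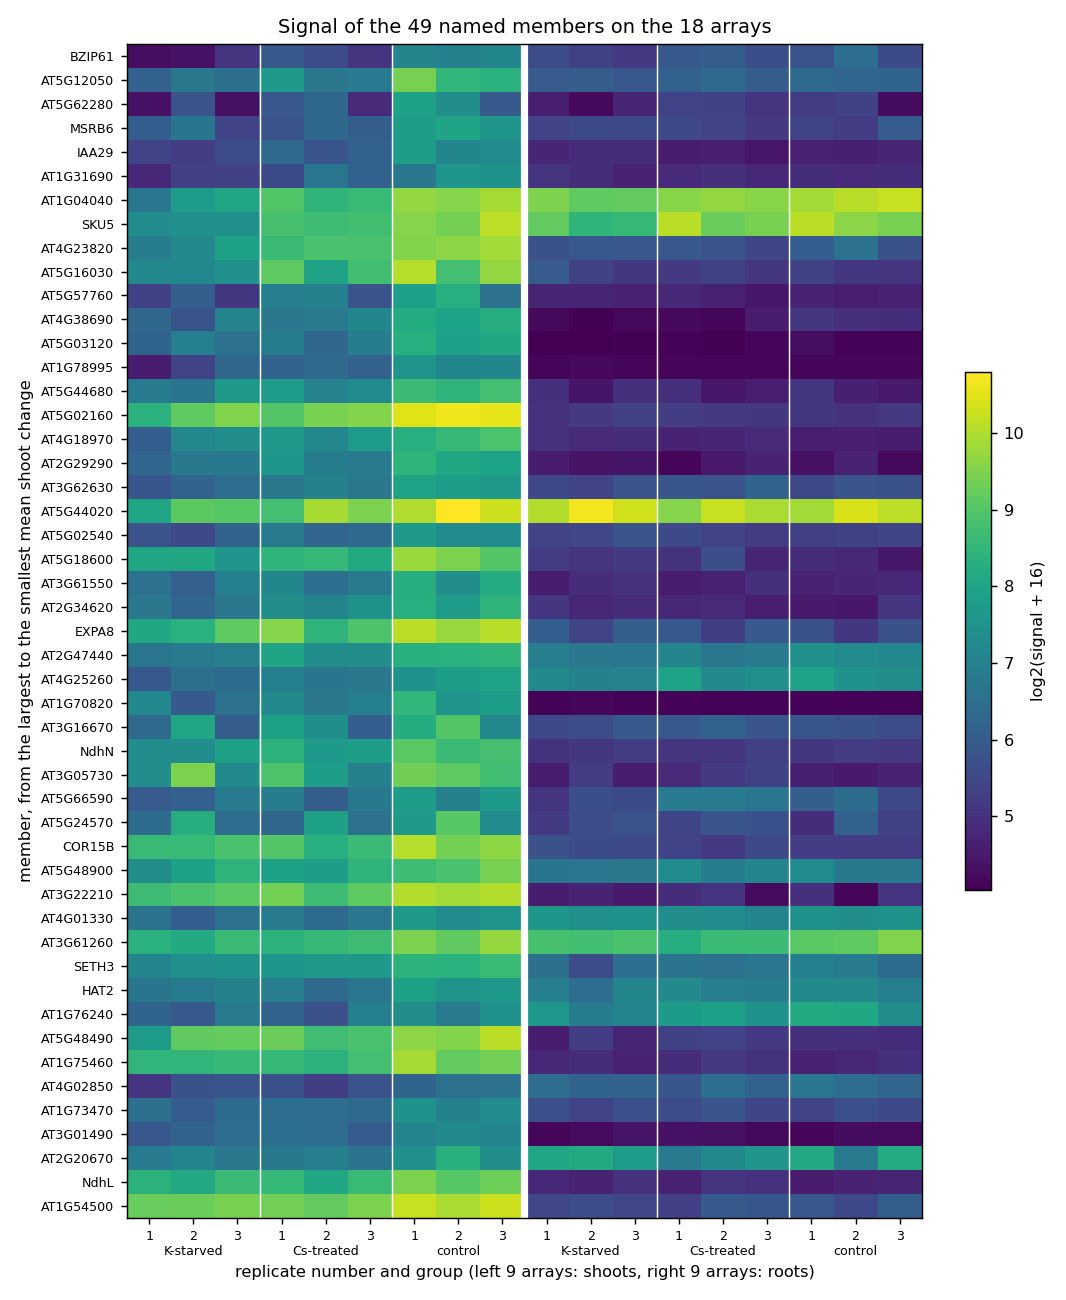
Signals of the 49 named members as log2(signal + 16), coloured from dark (low) to yellow (high), with 1 row per member and 1 column per array. Shoots fill the left 9 columns and roots the right 9, each in the order potassium-starved, caesium-treated and control; control shoots are the brightest shoot columns, and many members are dark in all 9 root columns.

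Transcription factors and auxin response genes include some of the largest differences. BZIP61, a basic leucine zipper transcription factor, had signals of 3.6, 4.5 and 17 in potassium-starved shoots, 44.4, 31.5 and 17.5 in caesium-treated shoots and 123.4, 113.1 and 126.1 in control shoots. All 3 potassium-starved values are below 26.7, the 40th percentile of mean signal in shoots and used here as a floor. Caesium-treated shoot 3, at 17.5, is below it too. The potassium difference was -2.53 on the log2(signal + 16) scale, and the true ratio cannot be told from signals this low. No array of either treatment overlapped with the controls, and the difference under caesium was -1.58. IAA29 encodes an Aux/IAA protein, a repressor of auxin-responsive transcription that auxin causes to be degraded. It had 26.9, 22.7 and 32.7 in potassium-starved shoots, 66.3, 41 and 53.8 in caesium-treated shoots and 209.7, 126.4 and 140.4 in control shoots, which are differences of -1.99 and -1.31. The treated shoots lay below every control again, and the potassium-starved shoots below every caesium-treated one.

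HAT2, a homeodomain-leucine zipper factor whose gene is induced by auxin, differed less and in the other order. Its signals were 85.4, 95.7 and 113.2 in potassium-starved shoots, 106.2, 66.8 and 87.3 in caesium-treated shoots and 220, 170.8 and 191.6 in control shoots. The differences were -0.88 under potassium starvation and -1.04 under caesium, with no overlap with control, while the 2 treatments overlapped each other.

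Cell wall and secreted proteins form a group of 8 named members, put together after their values were seen, with median differences of -1.38 under potassium starvation and -0.94 under caesium. SKU5 is a wall-associated protein anchored to the plasma membrane by a lipid, related to multicopper oxidases, and is known for its part in the direction of root growth. Its signal was 144.6, 158.2 and 156.9 in potassium-starved shoots, 436.9, 400.9 and 417.8 in caesium-treated shoots and 744.1, 659.3 and 1107.5 in control shoots. The 3 groups did not overlap, and the mean signal was 5.46 times lower under potassium starvation and 2.00 times lower under caesium. EXPA8 is an expansin, a protein that loosens cell walls under turgor. It had 256.6, 310.8 and 544.5 in potassium-starved shoots, 753.5, 331.2 and 473.5 in caesium-treated shoots and 1077.2, 849.4 and 1059.6 in control shoots, with differences of -1.45 and -0.99. Caesium-treated shoot 1, at 753.5, came closest to the lowest control, at 849.4.

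Among proteins acting on pectin, the gelling polysaccharide of the primary wall, AT4G23820 of the pectin lyase-like superfamily had 104.4, 134.1 and 221.7 in potassium-starved shoots, 386.6, 449.2 and 445.7 in caesium-treated shoots and 730.9, 779.3 and 916.1 in control shoots. Its potassium difference of -2.34 was more than 1 log2 unit beyond its caesium difference of -0.89. The pectate lyase family member AT5G48900 differed by -1.09 and -0.95, and AT4G25260, of the family that inhibits invertases and pectin methylesterases, by -1.45 and -0.95. Both had all treated shoots below all controls.

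The other members of the wall group are SETH3, of a sugar isomerase family, at -1.11 and -0.82, and 2 secreted protein families. AT5G66590 belongs to the CAP family, which holds the pathogenesis-related protein PR-1, and had 46.8, 53.3 and 98.2 in potassium-starved shoots, 103.3, 51.6 and 92.6 in caesium-treated shoots and 203.4, 109.8 and 193.4 in control shoots. The highest treated value, 103.3, lay just under the lowest control value, 109.8. AT3G16670, of the Ole e 1 and extensin family, had 67.7, 246.4 and 49.5 in potassium-starved shoots, 221.7, 154.8 and 51 in caesium-treated shoots and 282.1, 495.7 and 126.6 in control shoots. For this gene the groups overlapped, and the controls themselves spread from 126.6 to 495.7.

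Chloroplast proteins supply 6 named members, with median differences of -1.15 and -0.86. NdhN and NdhL are nucleus-encoded subunits of the chloroplast NADH dehydrogenase-like complex, which carries electrons in a cycle around photosystem I. NdhN had 149, 147.6 and 218.8 in potassium-starved shoots, 327.4, 192.3 and 213.5 in caesium-treated shoots and 524, 386.6 and 433.7 in control shoots. NdhL had 321.4, 264.2 and 388.2 in potassium-starved shoots, 365.2, 253.7 and 370.7 in caesium-treated shoots and 695.1, 516.6 and 623.1 in control shoots. Neither overlapped with the controls, and for NdhL the difference was nearly equal under both treatments, at -0.89 and -0.87.

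AT5G02160, described as a thylakoid protein that binds the FtsH5 protease, had 313, 553.1 and 720.6 in potassium-starved shoots, 496.2, 677.1 and 739.8 in caesium-treated shoots and 1395.8, 1609.1 and 1498.4 in control shoots. Its means were 529 ± 205 and 638 ± 126 under the treatments and 1501 ± 107 in controls (SD, n = 3 each). COR15B, a cold-regulated protein of the chloroplast stroma that protects membranes during freezing, had 377.7, 379.7 and 448.1 in potassium-starved shoots, 490.7, 295.8 and 384.6 in caesium-treated shoots and 1040.8, 657.8 and 783.8 in control shoots. For COR15B the potassium-starved values lay within the range of the caesium-treated values, and both were separate from control, at -0.99 and -1.06. The remaining 2 are the rubredoxin-like AT1G54500, named above, and AT2G34620 of the mTERF family, which acts on organelle transcripts, at -1.61 and -0.84.

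Enzymes outside these groups gave 8 members with median differences of -1.62 and -1.01, each of them lower under potassium starvation than under caesium. AT1G04040 and AT5G44020 belong to the HAD superfamily of acid phosphatases, which includes the vegetative storage proteins. AT1G04040 had 87.6, 197.8 and 242.5 in potassium-starved shoots, 480.5, 339.6 and 373.8 in caesium-treated shoots and 815.6, 742.7 and 927 in control shoots. The 3 groups were separate, with mean signals 4.71 and 2.08 times lower than control. AT5G44020 had 245.7, 535.8 and 514.5 in potassium-starved shoots, 425.8, 957.5 and 696.5 in caesium-treated shoots and 1010.2, 1772.8 and 1242.6 in control shoots. For each treatment, replicate 1 of AT5G44020 was the lowest array and replicate 2 the highest, and the controls showed the same order, yet all treated values were below all controls.

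The copper amine oxidase family member AT1G31690, of a family that oxidises polyamines, had 11.5, 24.2 and 25.5 in potassium-starved shoots, 30.7, 87.2 and 54.4 in caesium-treated shoots and 92.2, 176.5 and 164.5 in control shoots. All treated shoots were below every control, at -2.12 and -1.16. The others are the phosphodiesterase-like AT4G38690 at -1.76 and -1.23, the phosphoglucomutase family member AT1G70820 at -1.37 and -0.99, the Rossmann-fold proteins AT2G29290 and AT5G02540, and AT4G02850 of the PhzC/PhzF family. In the gene order of the RefSeq TAIR10.1 annotation, AT1G70820 and NdhL lie near each other on chromosome 1 with 5 protein-coding genes between them, the closest named members.

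Redox proteins were MSRB6 and the glutaredoxin AT5G18600, which acts on disulfides. MSRB6 is a methionine sulfoxide reductase, an enzyme that repairs oxidised methionine in proteins. It had 50.3, 86.5 and 25.9 in potassium-starved shoots, 38.3, 64.7 and 51.3 in caesium-treated shoots and 209.4, 238.4 and 169.1 in control shoots. The differences of -1.74 and -1.72 were nearly equal, and MSRB6 had the lowest caesium value of the named members. AT5G18600 had 248, 253.1 and 171.9 in potassium-starved shoots, 338.4, 360 and 268.1 in caesium-treated shoots and 866.8, 687.3 and 497 in control shoots, with no overlap with control.

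Lipid-related and defence peptides were AT4G18970, a GDSL esterase or lipase at -1.71 and -1.02, the lipid transfer protein AT5G48490, and the defensin-like AT3G05730. AT3G05730 had 149, 698.8 and 139.3 in potassium-starved shoots, 472.8, 206.5 and 109.5 in caesium-treated shoots and 628.7, 538.1 and 406.6 in control shoots. Potassium-starved shoot 2, at 698.8, was above every control, so the potassium mean of this gene rests on the other 2 arrays.

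Signalling and other families gave 7 members with medians of -1.08 and -0.90. They are the kinases AT4G01330 and AT3G01490, the RING/U-box protein AT3G61550, the remorin AT3G61260, AT5G44680 of the DNA glycosylase superfamily, AT1G75460 with a Lon protease domain and AT2G47440 with tetratricopeptide repeats. Remorins are proteins of plasma membrane microdomains. AT3G61260 had 313.2, 275.3 and 384.9 in potassium-starved shoots, 319.2, 363.5 and 396.2 in caesium-treated shoots and 691.9, 554.1 and 834.4 in control shoots, again with no overlap with control. The potassium differences of the 7 ranged from -1.57 for AT2G47440 to -0.96 for AT1G75460.

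For 12 named members no role is given here. AT5G12050 was the lowest of them over both treatments, with 55.6, 89.4 and 76.4 in potassium-starved shoots, 190.1, 89.4 and 96.5 in caesium-treated shoots and 671.4, 341 and 310.4 in control shoots. Its mean signal was 5.97 times lower under potassium starvation and 3.52 times lower under caesium, without overlap. AT5G62280 had 4.5, 39.4 and 4.4 in potassium-starved shoots, 42.5, 63.9 and 13 in caesium-treated shoots and 223.7, 151.1 and 45.6 in control shoots. Its controls spread widely, and caesium-treated shoot 2 was above the lowest control.

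AT5G16030, AT5G57760, AT5G03120 and AT1G78995 followed at potassium differences between -2.23 and -1.50 and caesium differences between -1.40 and -0.91. Among members without a gene name, probe set 253971_at, picked after values were seen, had the lowest potassium difference of all 96. It gave 37.4, 3.6 and 108.4 in potassium-starved shoots, 249.9, 146.8 and 267.1 in caesium-treated shoots and 665.2, 393.5 and 454.8 in control shoots. Its potassium difference was -3.33 and its caesium difference -1.14, and the 3 groups did not overlap.

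Differences between the treatments in shoots, also fixed in part by the choice, were widest for 253971_at at 2.19, with potassium-starved shoot 2 below the floor. Among named members they were widest for the wall proteins AT4G23820, where caesium-treated shoots were 1.44 log2 units above potassium-starved shoots, and SKU5, at 1.36. AT5G16030, at 1.32, and AT1G04040, at 1.20, came next among named members. At the other end of the named members caesium-treated shoots were the lower ones, at -0.16 for HAT2, -0.14 for AT3G05730, -0.12 for AT5G24570 and -0.10 for AT2G20670. Differences of this last size lie within the spread of the 3 arrays of each group, since the treatments overlapped for all 4 genes.

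Most members had little signal in roots. In control shoots their mean signals ran from 61.7 to 1501 with a median of 277, and in control roots from 0.3 to 1203 with a median of 21.8. Mean signals in control roots were below the root floor of 27.7 for 51 of 96 members (53.1%), against 298 of 1135 probe sets lowered by potassium starvation and not by caesium (26.3%), 16 of 44 lowered by caesium and not by potassium starvation (36.4%) and 934 of all 9396 (9.94%). The median member was 2.51 log2 units lower in control roots than in control shoots, against a median of 0.01 over the 9396. These shares describe the sets and were not tested, as probe sets are not independent replicates.

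**Figure D3:**
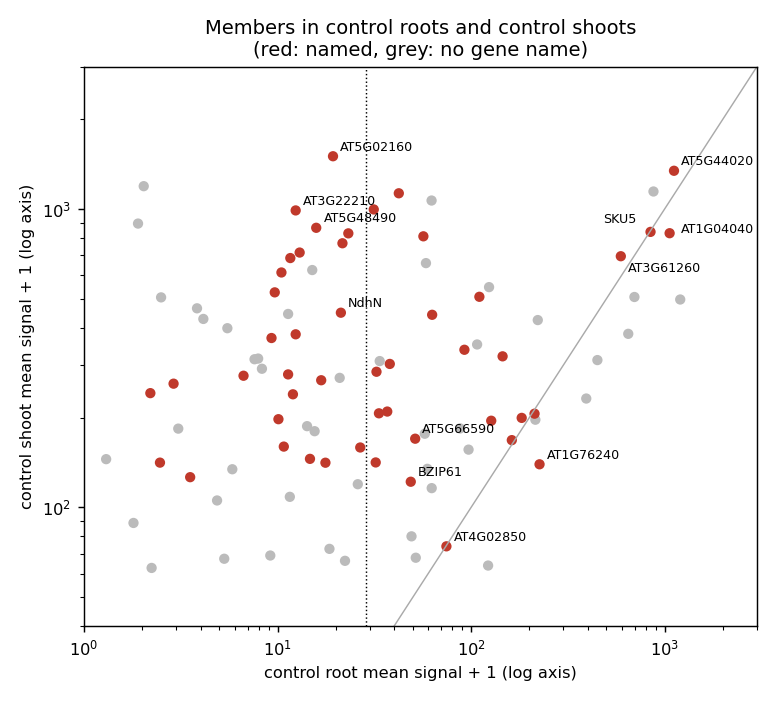
Mean signal of each member in control roots (horizontal log axis) and control shoots (vertical log axis), both plus 1. Red points are named members and grey points members without a gene name, the dotted line is the root floor of 27.7 and the grey line marks equal signals; 51 members have control root means below the floor, and few lie to the right of the grey line.

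Among named members AT5G02160, AT3G22210, AT5G48490 and AT5G18600 had the widest gaps between organs. AT5G02160 had 19.2, 16.2 and 19.6 in control roots against 1395.8, 1609.1 and 1498.4 in control shoots. AT3G22210 had 14.9, 1.9 and 17.4 in control roots against 1020.6, 921.4 and 1021.5 in control shoots. AT5G48490 and AT5G18600 were -4.81 and -4.69 log2 units from their control shoots. At the other end, 11 members had a higher mean of log2(signal + 16) in control roots than in control shoots. AT1G76240 had 271.3, 256.6 and 146.3 in control roots and 151.8, 98.8 and 164.7 in control shoots. AT1G04040 had 921.7, 1073.8 and 1185.1 in control roots against the control shoot values above, with only the lowest root below the highest shoot. SKU5 had 1092.5, 771.3 and 669.7 in control roots, which overlapped with its control shoots at a difference of 0.02. All 8 wall members passed the filter on low root signals, as did 1 of the 6 chloroplast members, 3 of the 8 further enzymes and 0 of the 3 lipid and defence members.

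In roots 45 members, 24 of them named, were above the floor and entered the test among 13647 probe sets, and the other 51 were not tested. Under potassium starvation 3 of the 45 fell past an adjusted p of 0.05 in limma's test, where 67 of all 13647 (0.491%) fell, and 0 rose, where 133 (0.975%) rose. Of the 837 tested probe sets lowered in shoots by potassium starvation and not by caesium, 15 fell and 3 rose. AT1G04040, the acid phosphatase, had 705.9, 552.9 and 559.4 in potassium-starved roots, 760.3, 815.1 and 758.5 in caesium-treated roots and 921.7, 1073.8 and 1185.1 in control roots. Potassium-starved roots were all below the caesium-treated roots, and these all below control. The log2 change under potassium starvation was -0.79 ± 0.15 (SE; adjusted p = 0.0285, limma), against -2.23 in shoots. This call was lost when control root 2 or 3, potassium-starved root 2 or 3 or caesium-treated root 3 was left out, with adjusted p up to 0.132.

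**Figure D4:**
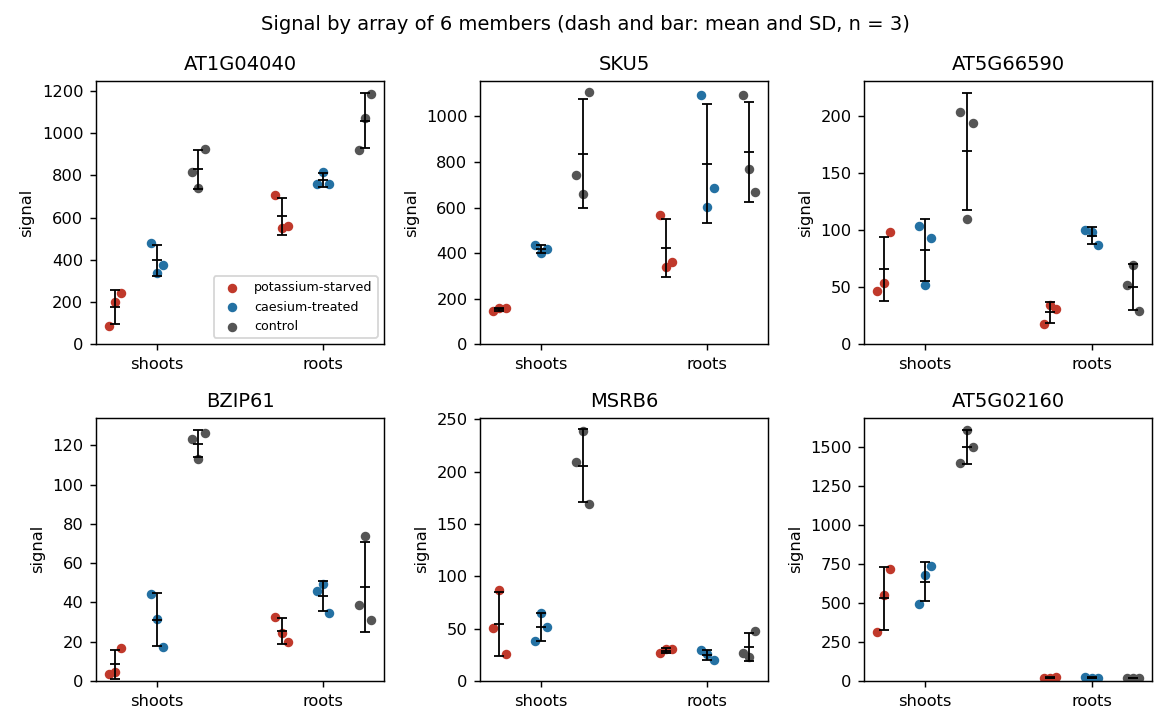
Signal on each of the 18 arrays for 6 members, with shoots on the left and roots on the right of each panel and potassium-starved, caesium-treated and control arrays in red, blue and grey. Dashes and bars give the mean and SD of 3 arrays; AT1G04040 shows the same order of groups in both organs, AT5G66590 has its caesium-treated roots above its controls, and AT5G02160 is low in all roots.

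The other 2 calls, named after their values were seen, were probe sets without a gene name. Probe set 264157_at had 15.4, 32.4 and 23.5 in potassium-starved roots, 84.7, 118.8 and 87.3 in caesium-treated roots and 76.4, 162.8 and 125 in control roots. It fell by 1.76 ± 0.24 on the log2 scale under potassium starvation (SE; adjusted p = 0.00715, limma), and this call held under each of 17 alternative settings. In shoots it had 10, 15.7 and 17.8 in potassium-starved, 5.8, 16.7 and 15 in caesium-treated and 33.9, 90 and 64.6 in control plants, so its shoot values under both treatments and its potassium-starved root values were near or below the floors. Probe set 264209_at had 17.7, 33.3 and 30.4 in potassium-starved roots, 28.2, 35 and 45 in caesium-treated roots and 52.8, 63.7 and 68.2 in control roots. Its change of -0.86 ± 0.18 (SE; adjusted p = 0.0450, limma) passed in 3 of 17 alternative settings, with adjusted p between 0.00954 and 0.128.

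Below the threshold, the root differences under potassium starvation were more often negative than positive. Of the 45 members 32 were negative (71.1%), against 53.1% of all 13647 probe sets, with medians of -0.30 and -0.02. Of the 837 tested probe sets lowered in shoots by potassium starvation and not by caesium, 76.5% were negative with a median of -0.23. An unadjusted p below 0.05 was reached by 21 of the 45 members, and all 21 were negative. It was reached by 2507 of all 13647 probe sets, 1414 of them negative, and by 233 of the 837 lowered in shoots by potassium starvation alone, 220 of them negative. All 3 potassium-starved roots lay below all 3 control roots for 15 of the 45 members (33.3%), where 12.1% of all tested probe sets met this, and above them for 1.

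**Figure D5:**
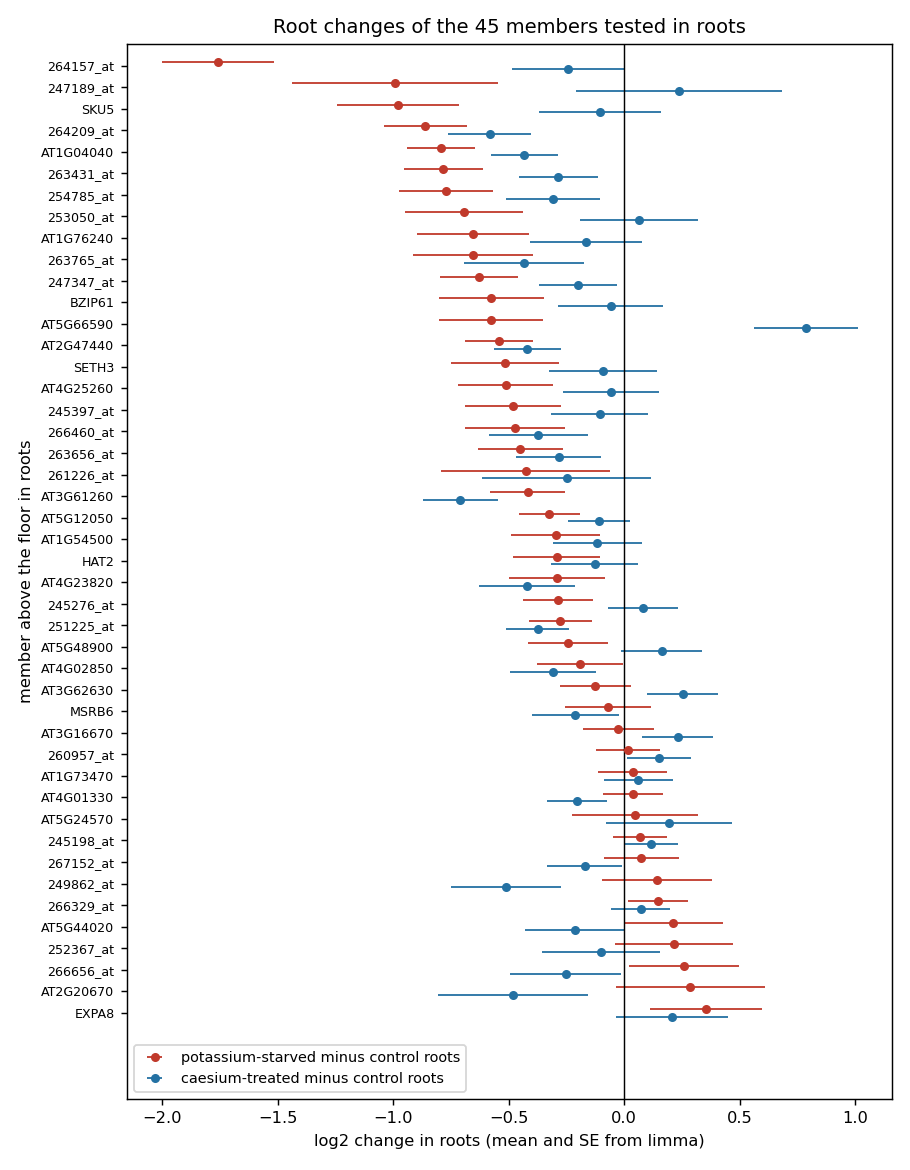
Log2 changes in roots for the 45 members above the floor, with potassium-starved minus control roots in red and caesium-treated minus control roots in blue; bars are standard errors from limma. Of the red points 32 lie left of 0 and of the blue points 32, but only 264157_at, 264209_at and AT1G04040 passed an adjusted p of 0.05, all under potassium starvation.

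SKU5 had 568.7, 339 and 361.5 in potassium-starved roots, 1092.6, 601.3 and 685 in caesium-treated roots and 1092.5, 771.3 and 669.7 in control roots. Each potassium-starved root was below each control, at -0.98 ± 0.26 on average (SE; adjusted p = 0.0953, limma), which did not pass. AT2G47440 had 106.3, 88.9 and 87.4 in potassium-starved roots, 122.2, 90.9 and 99.8 in caesium-treated roots and 160.6, 141.1 and 131.6 in control roots. Both treatments lay below every control for this gene, at -0.54 ± 0.15 (adjusted p = 0.0949) and -0.42 ± 0.15 (adjusted p = 0.360), and neither passed in limma. AT1G76240 had 185, 102.7 and 120.7 in potassium-starved roots, 195.7, 215.6 and 167.5 in caesium-treated roots and 271.3, 256.6 and 146.3 in control roots. Its groups overlapped through control root 3, with a change of -0.65 ± 0.24 that did not pass.

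EXPA8, the expansin, had positive differences in roots under both treatments, and neither passed. It had 51.1, 27.2 and 52.5 in potassium-starved roots, 43.7, 23.2 and 46.2 in caesium-treated roots and 36.2, 18.9 and 36.1 in control roots, a change of 0.35 ± 0.24 under potassium starvation (adjusted p = 0.464, limma). AT5G44020 had 1030.1, 1628.2 and 1260 in potassium-starved roots, 748, 1193.4 and 963.9 in caesium-treated roots and 924.3, 1325.2 and 1101.2 in control roots, with all groups overlapping and changes of 0.21 ± 0.22 under potassium starvation and -0.21 ± 0.22 under caesium that did not pass. The transcription factors BZIP61 and HAT2 stood at -0.58 ± 0.23 and -0.29 ± 0.19 under potassium starvation, and neither passed.

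Under caesium 0 of the 45 members passed in roots in limma's test without a replicate block, as did 0 of all 13647 probe sets (0%). An unadjusted p below 0.05 was reached by 1352 probe sets. Of the members 6 had such a p, 5 of them negative and 1 positive, and the smallest adjusted p was 0.175 among members and 0.0628 over all probe sets. The member with this p was the remorin AT3G61260, which had 438.7, 417.1 and 450.6 in potassium-starved roots, 291.7, 386.7 and 388.2 in caesium-treated roots and 517.9, 542.8 and 717.6 in control roots. All caesium-treated roots were below all control roots, at -0.71 ± 0.16, and the potassium-starved roots also lay below them, at -0.42 ± 0.16. The same pattern of no overlap under caesium held for 7 of the 45 members (15.6%), where 7.82% of all probe sets met it, and 2 members lay above all controls.

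The members' median difference under caesium in roots was -0.17, against 0.01 over all tested probe sets. It was negative for 32 of 45 members (71.1%), against 47.9% of all tested probe sets and 55.8% of those lowered in shoots by potassium starvation alone. When the model held a replicate block, as the pairing check allowed for this comparison, 51 probe sets passed over the whole array and 0 of them were members. AT4G23820, with 42.9, 38.1 and 27.8 in caesium-treated roots and 50.4, 80.4 and 36.2 in control roots, overlapped and had a change of -0.42 ± 0.21 that did not pass.

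Set against each other in roots, the treatments differed for 2 of the 45 members, both higher under caesium than under potassium starvation. Of all 13647 probe sets 341 (2.5%) were higher and 349 (2.56%) lower. Of the 837 tested probe sets lowered in shoots by potassium starvation and not by caesium, 39 were higher and 8 lower. AT5G66590, the CAP family protein, had 17.7, 34.7 and 30.9 in potassium-starved roots, 100.3, 97.8 and 86.6 in caesium-treated roots and 52, 69.7 and 29.5 in control roots. Its caesium-treated roots were above every other root, 1.36 ± 0.23 over potassium-starved roots (SE; adjusted p = 0.0101, limma) and 0.79 ± 0.23 over control roots, which did not pass (adjusted p = 0.262). In shoots of the same treatment this gene was -0.91 from control. The second was 264157_at, whose caesium-treated roots stood 1.52 ± 0.24 above its potassium-starved roots (adjusted p = 0.00960, limma). Both calls were lost without the arrays titled as repeats, at an adjusted p of 0.0505.

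Members with small p that did not pass between the treatments included SKU5 at 0.87 ± 0.26 (adjusted p = 0.0766, limma), AT3G62630 at 0.38 ± 0.16 and AT2G20670 at -0.77 ± 0.32. SKU5 passed in 4 of 17 alternative settings, among them without potassium-starved root 1 (adjusted p = 0.0459, limma) and without the titled repeats (adjusted p = 0.0437, limma). AT2G20670 had 242.8, 273.8 and 205 in potassium-starved roots, 99.8, 135.7 and 175.1 in caesium-treated roots and 259.9, 96.4 and 278.8 in control roots, with control root 2 far below the other controls, and its treatments did not overlap each other. AT3G62630 had 29.6, 27.1 and 38.3 in potassium-starved roots, 41.3, 39.8 and 57.2 in caesium-treated roots and 30.6, 40.1 and 36.9 in control roots, so that the potassium-starved roots lay just below the caesium-treated roots and both overlapped with control. The members' median difference was 0.18, against 0.03 over all tested probe sets. It was positive for 31 of 45 members, against 7356 of all 13647 probe sets and 621 of the 837 lowered in shoots by potassium starvation alone.

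The background reading of the root scans, as the labels give it, was 61.05, 60.97 and 73.96 in potassium-starved roots, 66.48, 63.59 and 72.51 in caesium-treated roots, and 79.15, 75.72 and 76.05 in control roots. It thus moved with the treatments, as did the 4 photosynthetic markers in caesium-treated roots given above. The part of either in the root results was not tested.

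Of 25 lists of pathway genes drawn from gene symbols and their synonyms, 6 held at least 1 member. Descriptions were not searched, so members that go by a locus code are in none of the lists. Among these are AT4G23820, AT5G48900 and AT4G25260, placed with pectin above, and the lipid-related AT5G48490 and AT4G18970. The list for light harvesting and photosystems had 28 named probe sets with a control shoot signal of at least 60. Of these 7 reached -0.8 under potassium starvation and 2, NdhN and NdhL, under caesium. Both are described above as subunits of the NADH dehydrogenase-like complex, so this list reaches beyond light harvesting and photosystem genes. No other gene on it reached -0.8 under caesium. Of 27 transcription factor genes 3 reached it under potassium starvation and 2, BZIP61 and HAT2, under caesium. Of 27 genes on the list for cellulose and other wall polysaccharides 11 reached it under potassium starvation and 1, SKU5, under caesium. SKU5 is described above as related to multicopper oxidases, so this list reaches beyond polysaccharide genes. Of 10 expansin and xyloglucan enzyme genes 2 and 1 reached it, the last EXPA8, of 5 auxin genes 1 and 1, IAA29, and of 11 cold and dehydration genes 1 and 2, with COR15B under both.

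The other 19 lists held 0 members by symbol or synonym and had 0 probe sets at -0.8 or lower under caesium. Under potassium starvation they held between 0 and 8. They include 4 genes of potassium and other cation transport, with 0 at -0.8 under either treatment and shoot medians of -0.05 and 0.07. In roots, of 40 tested genes on the wall polysaccharide list 2 fell and 0 rose under potassium starvation. Of 20 tested expansin and xyloglucan enzyme genes 1 fell and 1 rose. Of 22 tested genes on the light harvesting and photosystem list 0 passed in any of the 3 root comparisons. Their median difference from control roots was 0.37 under potassium starvation and 0.43 under caesium. Of 44 tested transcription factor genes 1 rose under potassium starvation and 2 were lower under caesium than under potassium starvation. The 5 auxin genes and the 11 cold and dehydration genes tested had 0 calls in roots.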

How the data were processed

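Each array file holds 1 signal intensity per probe set, deposited by the authors on a linear scale. From the values, every array has a mean of about 100 after leaving out the highest and lowest 2%. Which software made these intensities is not given in the sources used; the small number of arrays limits the precision. The 64 control probe sets were left out, and 22746 remained, 13513 of them with 1 gene name in the probe table. Group means were taken of log2(signal + 16), so differences between low signals come out smaller than those of log2(signal).

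The members, the lists and the roles were chosen with earlier results of these data known. Role groups were formed after values were seen, and their members are named for that reason. The further named genes follow a written rule: the 14 with the lowest mean shoot difference, those nearest to the threshold, passing or with the 5 smallest p in roots, in lists with at least 2 members, or at the ends of the differences between treatments and between organs.

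Roots were tested with limma 3.58.1 in R 4.3.3 (lmFit and eBayes, 9 arrays, Benjamini-Hochberg over 13647 probe sets above the 40th percentile of mean root signal, the floor). All 3 root comparisons share arrays. On simulated root arrays with 13647 probe sets, 74 of 100 changes of 1 log2 unit and 97 of 100 of 2 units were found, with 9 false calls. The simulated noise was independent between arrays, unlike the correlated deviations given below, so these figures may not hold for the real arrays. The members' median changes from control roots, -0.30 and -0.17, were smaller than the simulated ones. Detection of changes of that size was not simulated. The main fits held no replicate block in any comparison, and the block was an alternative setting. Replicate numbers were judged to pair arrays only where the deviations of equally numbered arrays correlated above 0.1 for each number. In roots this held for caesium against control (0.450, 0.180 and 0.181) but not for potassium starvation against control (0.497, 0.141 and -0.0299) or caesium against potassium starvation (0.297, 0.0864 and 0.277). Alternatives were other pseudocounts, filters, scalings, array weights, the replicate block and leaving out arrays.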

Additional observations from a re-analysis of the deposited data

Results flagged for a closer look

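Among the 45 members tested in roots, there were 3 cases in which all treated roots lay above all control roots although all shoots of the same treatment lay below theirs. Some members below the root floor, COR15B and IAA29 under potassium starvation among them, showed the same order and were not tested in roots. Probe set 245198_at, which has no gene name here, had 64.5, 66.9 and 64.1 in potassium-starved roots, 66.1, 68.9 and 68.8 in caesium-treated roots and 63.4, 57.5 and 63.5 in control roots. Its root differences were 0.0681 under potassium starvation and 0.116 under caesium on the log2 scale, and neither passed limma's test (adjusted p = 0.786 for each). AT5G66590 stood 0.785 above control in caesium-treated roots, which did not pass either (adjusted p = 0.262, limma). The difference between the organs was not tested, since the choice of members fixed the direction in shoots.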

How the results depend on the processing

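The choice of members kept between 86 and 154 probe sets when each shoot array was left out in turn, with 154 without control shoot 2 (81 of the 96 among them). With a pseudocount of 64 there were 42 members, and with a threshold of -1 there were 38, all of them among the 96. Root counts moved as follows. For potassium starvation against control, 200 probe sets and 3 members passed, against 130 probe sets with a pseudocount of 1, 93 with no filter, 724 and 7 members with the replicate block, 1133 and 8 members with array weights, and 127 without the titled repeats. Leaving out 1 root array gave 35 to 238 probe sets and 1 to 4 members, with 35 without potassium-starved root 3. For caesium against control, 0 probe sets passed, against 1 with no filter, 51 with the replicate block, 22 with array weights, 1 without the titled repeats and 0 to 13 with 1 array left out, 13 without control root 2; 0 members passed under any of these. For caesium against potassium starvation, 690 probe sets and 2 members passed, against 1629 and 6 with the replicate block, 2539 and 8 with array weights, 375 and 1 without the titled repeats, and 136 to 765 probe sets and 2 to 3 members with 1 array left out. The cause of these shifts was not tested. SKU5 passed under potassium starvation in roots in 3 of 17 settings and AT2G47440 in 2. Between caesium and potassium starvation SKU5 passed in 4, also with the replicate block (adjusted p = 0.00537) and array weights (adjusted p = 0.0122, limma), and no result changed its sign.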
